A study of Rattus norvegicus with 11 samples.

Results

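The kidneys of obese and lean ZSF1 rats were compared cell type by cell type, using every cell that the deposited table assigns to an untreated obese or a lean animal. That gave 77413 of the 114615 cells of the series, 47863 from 4 obese rats and 29550 from 4 lean rats, with the animal as the replicate. The other 37202 cells came from 3 obese rats given enalapril, which entered the fits only to estimate the spread between animals. ZSF1 is a hybrid rat strain in which animals that inherit a defective leptin receptor gene from both parents become obese and diabetic and develop kidney disease, and lean animals of the strain serve as controls. The labels enter the same genotype, ZSF1-LeprfaLeprcp/Crl, for lean and obese animals alike, so the groups rest on the phenotype label. All were males, 12 weeks old on arrival, fed high energy chow, and labelled with no treatment. Per the labels' protocols the untreated obese rats drank vehicle, and whether the lean rats did is not said. The kidneys were perfused, dissociated, freed of debris and of dead cells, and 10000 cells were loaded for droplet sequencing of the 3′ ends of transcripts.

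The nephron is a tube with a fixed order of segments. Filtrate from the glomerulus enters the convoluted proximal tubule (PCT in the table), where glucose, amino acids and most salt are taken back, and then the straight proximal tubule (PST). It passes through the descending thin limb (DTL), which is permeable to water, and the thick ascending limb (TAL), which takes up salt without water and ends at the salt-sensing macula densa (MD). The distal convoluted tubule (DCT), with its thiazide-sensitive cotransporter, and the connecting tubule (CNT) lead to the collecting duct, where principal cells (PC) handle water and sodium and type A and type B intercalated cells (IC-A, IC-B) handle acid and base. Tubule cells that pump much salt, above all TAL and DCT cells, are rich in mitochondria. The names are the authors' own and were read in their usual renal sense. They could not be checked against marker genes, because the deposited table has no gene values.

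The libraries differed in depth. Lean rats had 4232 to 11148 cells and obese rats 7052 to 18427. Lean rat 2 stood apart, with a median of 407 UMIs per cell (unique molecular identifiers, one per captured transcript), against 1417.5 to 2231 in the other lean and 1939.5 to 3092 in the obese rats. It had 12 cells of at least 1000 UMIs, and its smallest cell had 193 UMIs where the other 10 libraries of the series began at 469 to 493. The values that this library moves most are therefore also given without it. Any pair of the 8 libraries shared 3 to 62 cell barcodes, at most 0.681% of the smaller library. The sample codes in the labels begin with 2 stems among lean and 2 among obese rats, and no stem spans both groups. In both the lean and the obese group, rats 1 and 2 share a stem, as do rats 3 and 4. What a stem stands for is not said, so it cannot be told apart from the phenotype.

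The first question was whether cell types that sit next to each other, along the tubule or within the immune system, kept their proportions to one another. A ratio of a pair of types in one animal does not move when some other type takes a larger share of the cells. The counts are of cells that came through dissociation and filtering, and how far these steps favoured a type in either group was not tested. Of 22 pairs, 11 differed between obese and lean kidneys (50%), 5 higher (22.7%) and 6 lower (27.3%), in limma's test of the log2 ratio per animal with Benjamini-Hochberg adjustment. In 5 of 22 pairs (22.7%) the obese and lean animals did not overlap. By list, 8 of 14 nephron pairs (57.1%), 2 of 7 immune pairs (28.6%) and the pair from the glomerulus were called. The nephron calls furthest downstream, DCT/CNT to DCT and all IC to PC, were each made in 4 of 11 fits that left out 1 animal. Many pairs share a type, so they are not independent of each other. The exact permutation test called 0 of 22 after adjustment and 5 at an unadjusted p under 0.05, as 4 against 4 animals cannot reach a p below 0.0286. In the remaining text, values after ± are SD where they follow a mean and SE where they follow a difference.

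**Figure D1:**
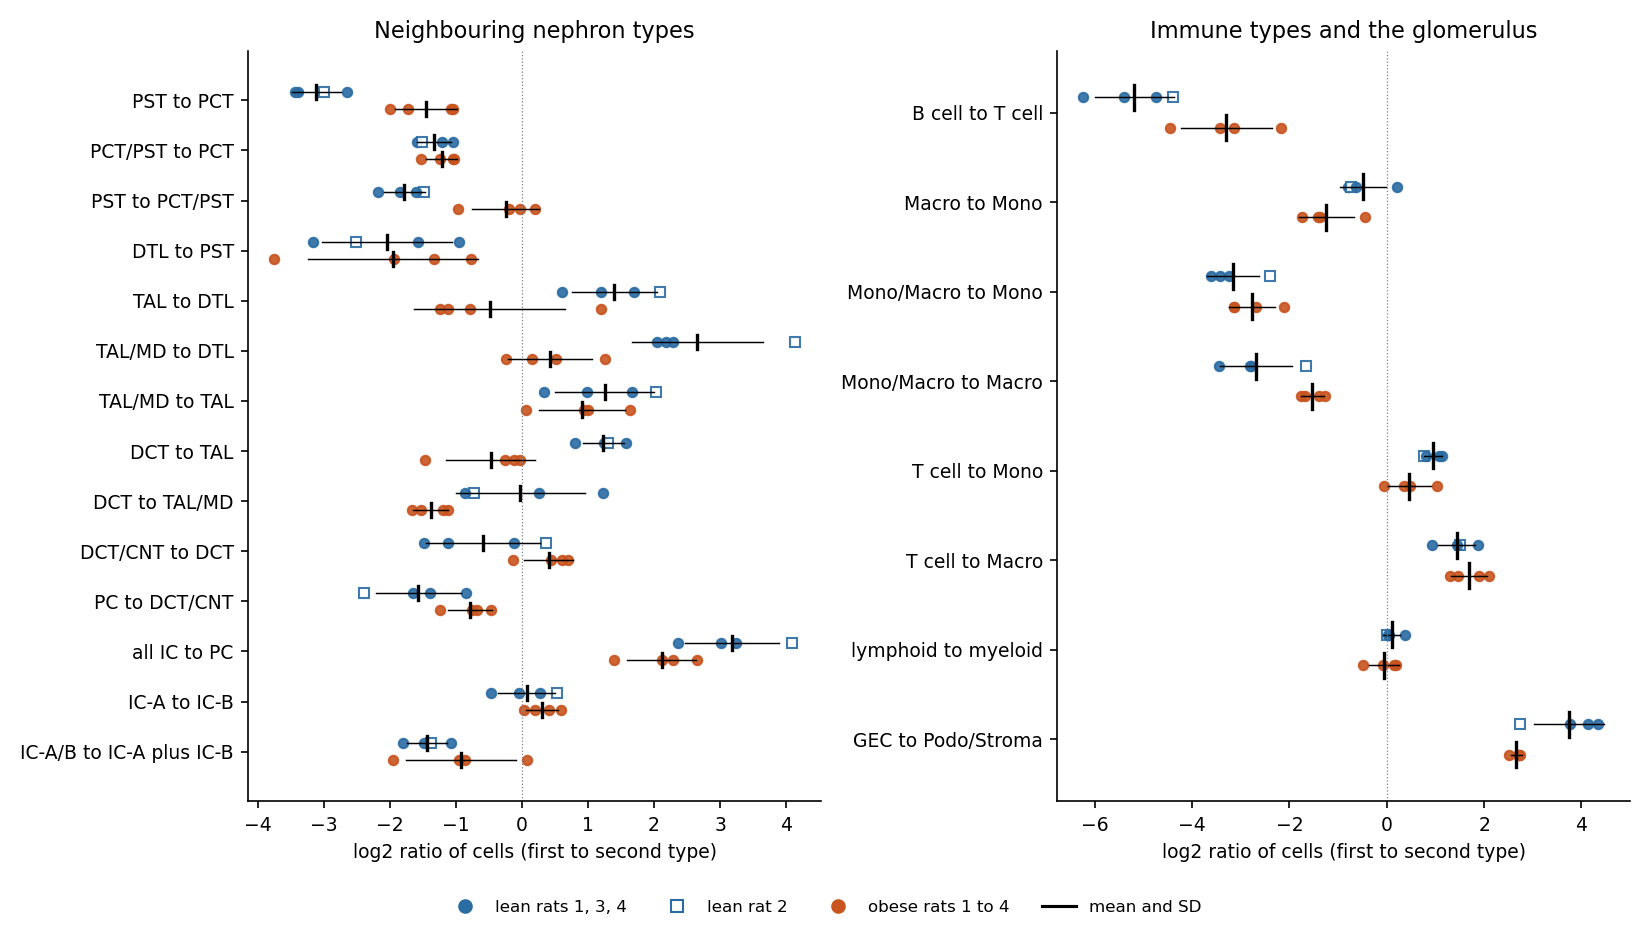
Each point is 1 rat, placed at the log2 ratio of its cells of the first named type to those of the second. Lean rats are blue, with lean rat 2 as an open square, obese rats are orange, and the black marks give mean and SD. The obese rats lie right of every lean rat for PST to PCT and left of every lean rat for DCT to TAL.

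In the proximal tubule the straight part gained on the convoluted part. Lean rats 1 to 4 had 9.25, 12.6, 9.54 and 16.0 PST cells per 100 PCT cells, and obese rats 1 to 4 had 48.7, 47.4, 30.4 and 25.2. The highest lean animal thus lay below the lowest obese animal, and the groups differed 3.16-fold (log2 difference 1.66 ± 0.33, adjusted p = 0.00122 in limma, n = 4 and 4). PST cells also rose against the joint PCT/PST type. Lean rats had 27.8, 35.8, 22.1 and 32.8 PST cells per 100 PCT/PST cells and obese rats 115, 98.1, 87.8 and 51.4, again without overlap (1.53 ± 0.32, adjusted p = 0.00122 in limma, n = 4 and 4). The joint type itself stood in much the same proportion to PCT, at 33.2 to 48.8 per 100 in lean and 34.6 to 49.0 per 100 in obese rats (0.13 ± 0.29, adjusted p = 0.703 in limma, n = 4 and 4). Both PST ratios were called whichever single animal was left out, and without lean rat 2 they were 1.70 ± 0.35 and 1.63 ± 0.33. Neither was called among cells with at least 20% mitochondrial UMIs (1.27 and 1.35), and PST to PCT/PST was not called among cells with at least 5% (0.93) or under 20% (1.03).

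In the loop of Henle the descending thin limb gained on the thick limb. Lean rats had 229, 435, 153 and 329 TAL cells per 100 DTL cells and obese rats 42.2, 58.1, 46.1 and 230.4. In 3 of 4 obese rats DTL cells outnumbered TAL cells, which happened in no lean rat, while obese rat 4 lay within the lean range (log2 difference -1.89 ± 0.49, adjusted p = 0.00550 in limma, n = 4 and 4). The joint TAL/MD type fell further against DTL. Lean rats had 453, 1787, 488 and 417 TAL/MD cells per 100 DTL cells and obese rats 85.1, 111, 144 and 241, without overlap (-2.23 ± 0.45, adjusted p = 0.00122 in limma, n = 4 and 4). Lean rat 2 was the extreme, with 23 DTL cells in all, and without it the difference was -1.74 ± 0.35. Both calls held with each animal left out, but TAL to DTL was not called among cells with at least 5% (-1.21 ± 0.50) or at least 20% mitochondrial UMIs (-0.96 ± 0.76). The ratio of DTL cells to PST cells, their upstream neighbour, was 11.1 to 51.8 per 100 in lean and 7.43 to 58.6 per 100 in obese rats (0.10 ± 0.57, adjusted p = 0.868 in limma, n = 4 and 4). The proportion of TAL/MD to TAL cells also overlapped between the groups, at 127 to 411 per 100 in lean and 105 to 312 per 100 in obese rats (-0.35 ± 0.41, adjusted p = 0.526 in limma, n = 4 and 4). Neither of these pairs was called, and with standard errors of this size a difference of the order of the called ones could have been missed for DTL to PST.

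The distal convoluted tubule fell against the thick limb upstream of it. Lean rats had 237, 249, 176 and 298 DCT cells per 100 TAL cells and obese rats 92.5, 83.6, 98.0 and 36.1. DCT cells were the more numerous of the pair in every lean rat and the less numerous in every obese rat, a 3.25-fold difference (log2 difference -1.70 ± 0.35, adjusted p = 0.00122 in limma, n = 4 and 4; -1.68 ± 0.38 without lean rat 2). Against TAL/MD the lean rats had 120.0, 60.6, 55.1 and 235 DCT cells per 100 and the obese rats 45.9, 43.7, 31.5 and 34.4, without overlap (-1.36 ± 0.41, adjusted p = 0.0131 in limma, n = 4 and 4). This call was lost without lean rat 4 (-0.94 ± 0.35) and among cells with at least 500 UMIs (-1.17). Among cells with at least 1000 UMIs, where lean rat 2 had no value, it was made (-1.68 ± 0.44). The joint DCT/CNT type rose against DCT, from 46.0, 129, 92.6 and 35.8 per 100 in lean to 152, 91.5, 136 and 163 per 100 in obese rats, with overlap (0.99 ± 0.39, adjusted p = 0.0434 in limma, n = 4 and 4). It was called in 4 of 11 fits that left out 1 animal. It missed the threshold without lean rat 1 (0.81) or 4 (0.69), obese rat 1 (0.93), 3 (0.98) or 4 (0.89), or treated rat 2 or 3 (0.99 each), and was largest without lean rat 2 (1.31 ± 0.36). It was also not called when lean and obese animals were fitted alone (0.99) or among cells with at least 500 UMIs (0.50). edgeR did not call it either (0.49 as a log2 difference of the DCT/CNT share of the pair). Among cells with at least 1000 UMIs, again without lean rat 2, it was called (1.49 ± 0.42).

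All 3 of these distal ratios depended on the mitochondrial content of the cells counted. The 4 lean rats together had 1124 DCT cells with under 5% mitochondrial UMIs, 277 with 5% to 20% and 159 with at least 20%. The 4 obese rats had 83, 101 and 357 in these classes. The lean excess of DCT cells thus lay in the class with few mitochondrial transcripts, where every lean rat had more cells than any obese rat. Cells with at least 20% numbered 81, 1, 66 and 11 in lean and 105, 73, 114 and 65 in obese rats, with overlap. None of these counts is scaled to the size of the library, which was larger on average in obese rats. Among cells with at least 5% the DCT to TAL difference was -0.70 ± 0.36 and not called, and among cells with at least 20% it was -0.04. DCT to TAL/MD turned to 0.80 and 1.69 at the same limits, and DCT/CNT to DCT turned to -1.12 and -2.56, none of them called. Among cells under 20% all 3 kept their direction and were called (-1.83, -1.96 and 2.42). Since the mitochondrial share of DCT cells itself differed between the groups, as described below for each type, these limits remove different parts of the DCT cells of lean and obese rats.

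**Figure D2:**
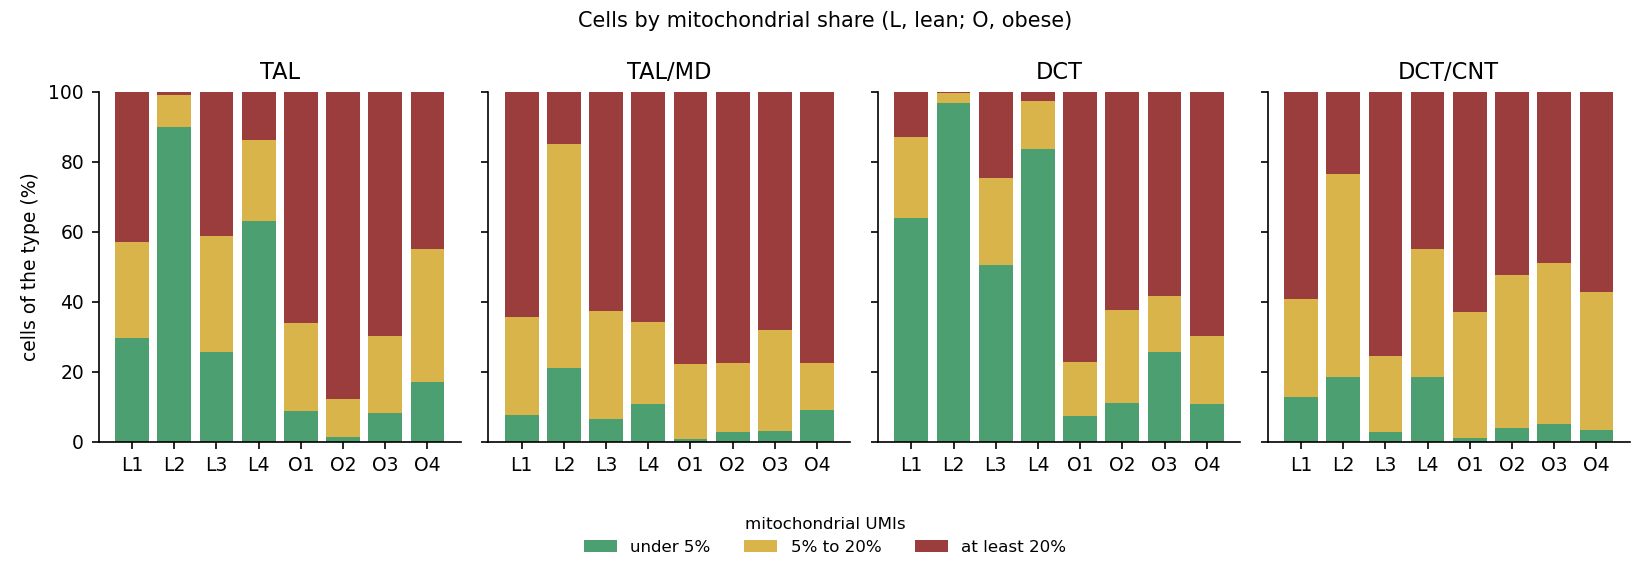
Stacked bars give the percent of each rat's TAL, TAL/MD, DCT and DCT/CNT cells with under 5%, 5% to 20% and at least 20% mitochondrial UMIs, for lean rats L1 to L4 and obese rats O1 to O4. Cells under 5% make up 50.6% to 96.8% of lean and 7.35% to 25.6% of obese DCT cells. Among DCT/CNT cells they make up 2.81% to 18.4% in lean and 0.966% to 4.91% in obese rats, a smaller contrast with overlap.

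Further down, intercalated cells lost ground to principal cells. All intercalated types together stood at 518, 1718, 956 and 812.5 cells per 100 PC in lean and 265, 439, 489 and 631 per 100 in obese rats. Of the obese rats, 3 of 4 lay below every lean rat (log2 difference -1.06 ± 0.41, adjusted p = 0.0403 in limma, n = 4 and 4). The call was lost in 7 of the 11 fits that left out 1 animal, with the smallest differences without lean rat 2 (-0.76 ± 0.39) or obese rat 1 (-0.83 ± 0.42). The others were lean rats 3 (-1.04) and 4 (-1.12), obese rats 2 (-1.07) and 3 (-1.12) and treated rat 2 (-1.06). It was also lost among cells with at least 1000 UMIs (-0.90) or 500 UMIs (-1.06), and among cells with at least 5% (-1.43), under 20% (-1.34) or at least 20% mitochondrial UMIs (-0.64). edgeR did not call it on the share of the pair total (-0.15). Intercalated cells made up most of that total in every rat, so their share moves less than the ratio. The balance of acid-secreting type A to base-secreting type B cells was not called, at 72.3 to 145 type A cells per 100 type B in lean and 102 to 151 per 100 in obese rats (0.23 ± 0.37, adjusted p = 0.626 in limma, n = 4 and 4). The joint IC-A/B type was at 28.6 to 47.7 per 100 single-type intercalated cells in lean and 25.9 to 106 per 100 in obese rats (0.51 ± 0.38, adjusted p = 0.288 in limma, n = 4 and 4), and was called only among cells under 20% mitochondrial UMIs (1.07). Principal cells per 100 DCT/CNT cells were 55.5, 19.0, 31.7 and 38.1 in lean and 59.4, 72.0, 62.6 and 42.1 in obese rats (0.78 ± 0.35, adjusted p = 0.0688 in limma, n = 4 and 4).

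In the glomerulus, whose capillary endothelium and podocytes form the filter, the endothelial cells (GEC) fell against the joint Podo/Stroma type. Lean rats had 2055, 700, 1364 and 1790 GEC per 100 Podo/Stroma cells and obese rats 649, 676, 572 and 662. The obese rats lay close together below lean rats 1, 3 and 4. Lean rat 2, with 9 Podo/Stroma cells, lay at the obese level, and on the tested log2 scale obese rat 2 (2.75) was slightly above it (2.74). The log2 difference was -1.08 ± 0.36 (adjusted p = 0.0205 in limma, n = 4 and 4) and -1.42 ± 0.31 without lean rat 2. It missed the threshold without lean rat 1 (-0.88 ± 0.38), lean rat 4 (-0.95 ± 0.39) or obese rat 3 (-1.03 ± 0.41), and among cells under 20% (-0.85) or with at least 20% mitochondrial UMIs (-1.69). It was not called by edgeR either, which tested the first type's share of the pair total (log2 difference of the share -0.11). GEC made up most of the pair total in every rat, so this share moves far less than the ratio. The table gives no way to separate podocytes from stroma within that type.

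Among immune types, B cells, which make antibodies, rose against T cells. Lean rats had 1.28, 4.46, 2.29 and 3.57 B cells per 100 T cells, resting on 14, 7, 17 and 10 B cells. Obese rats had 9.21, 11.4, 4.55 and 22.1 per 100, from 152, 113, 85 and 593 B cells. The lowest obese rat lay level with the highest lean rat, lean rat 2, and the others lay above all lean rats (log2 difference 1.90 ± 0.50, adjusted p = 0.00550 in limma, n = 4 and 4; 2.16 ± 0.52 without lean rat 2). The call held with each animal left out, but not among cells with at least 500 UMIs (1.19) or with at least 20% mitochondrial UMIs (1.19). Among cells with at least 1000 UMIs, where lean rat 2 had no value, it was called (2.89 ± 0.51).

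Among myeloid cells, which engulf particles and debris, the type that the authors named jointly monocyte or macrophage (Mono/Macro) rose against macrophages. There were 14.1, 30.9, 14.2 and 8.84 such cells per 100 macrophages in lean and 31.1, 29.3, 41.5 and 37.9 per 100 in obese rats. Lean rat 2, with 17 Mono/Macro cells, was the only lean animal within the obese range (1.15 ± 0.38, adjusted p = 0.0205 in limma, n = 4 and 4; 1.49 ± 0.33 without it). The call was lost without lean rat 4 (0.90 ± 0.38) or obese rat 3 (1.07 ± 0.43). It was also lost among cells with at least 500 UMIs (0.80) or with at least 20% mitochondrial UMIs (0.37). Among cells with at least 1000 UMIs, where lean rat 2 had no value, it was made (1.47 ± 0.44). Macrophages per 100 monocytes were 57.8, 59.8, 64.2 and 116 in lean and 73.6, 38.7, 37.4 and 29.9 in obese rats, and this pair was not called (-0.75 ± 0.47, adjusted p = 0.222 in limma, n = 4 and 4). Neither was Mono/Macro to monocytes (0.40 ± 0.41, adjusted p = 0.472 in limma, n = 4 and 4).

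T cells kept closer proportions to the myeloid types. There were 171 to 220.5 T cells per 100 monocytes in lean and 95.7 to 205 per 100 in obese rats (-0.50 ± 0.33, adjusted p = 0.245 in limma, n = 4 and 4). T cells per 100 macrophages ranged from 190.5 to 365 and from 247 to 428 (0.26 ± 0.37, adjusted p = 0.608 in limma, n = 4 and 4). Lymphoid cells as a whole stood at 129, 100, 103 and 101 per 100 myeloid cells in lean and 114, 71.0, 94.9 and 111 per 100 in obese rats. That log2 difference was -0.16 ± 0.29 (adjusted p = 0.636 in limma, n = 4 and 4), so the lymphoid to myeloid balance did not differ beyond the spread between animals.

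The second question was whether the mitochondrial share of a cell's UMIs, a measure that reads both the mitochondrial transcripts of healthy cells and the leakage of cytoplasmic RNA from damaged ones, differed by type. The median share per animal was higher on average in obese rats in all 17 types tested, but DCT alone passed limma's test after adjustment (1 of 17, 5.88%). Without lean rat 2, DCT/CNT turned to -2.48 ± 3.94 percentage points and the other 16 stayed higher. The groups did not overlap in 4 of 17 types (23.5%): DCT, TAL, PCT and monocytes. The lean DCT medians were 1.16%, 0%, 4.75% and 0.136%, and the obese ones 33.9%, 27.4%, 25.8% and 33.5% (difference 28.6 ± 4.27 percentage points, adjusted p = 0.000427 in limma, n = 4 and 4). The lowest obese median lay far above the highest lean one, and without lean rat 2 the difference was 28.1 ± 4.75.

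**Figure D3:**
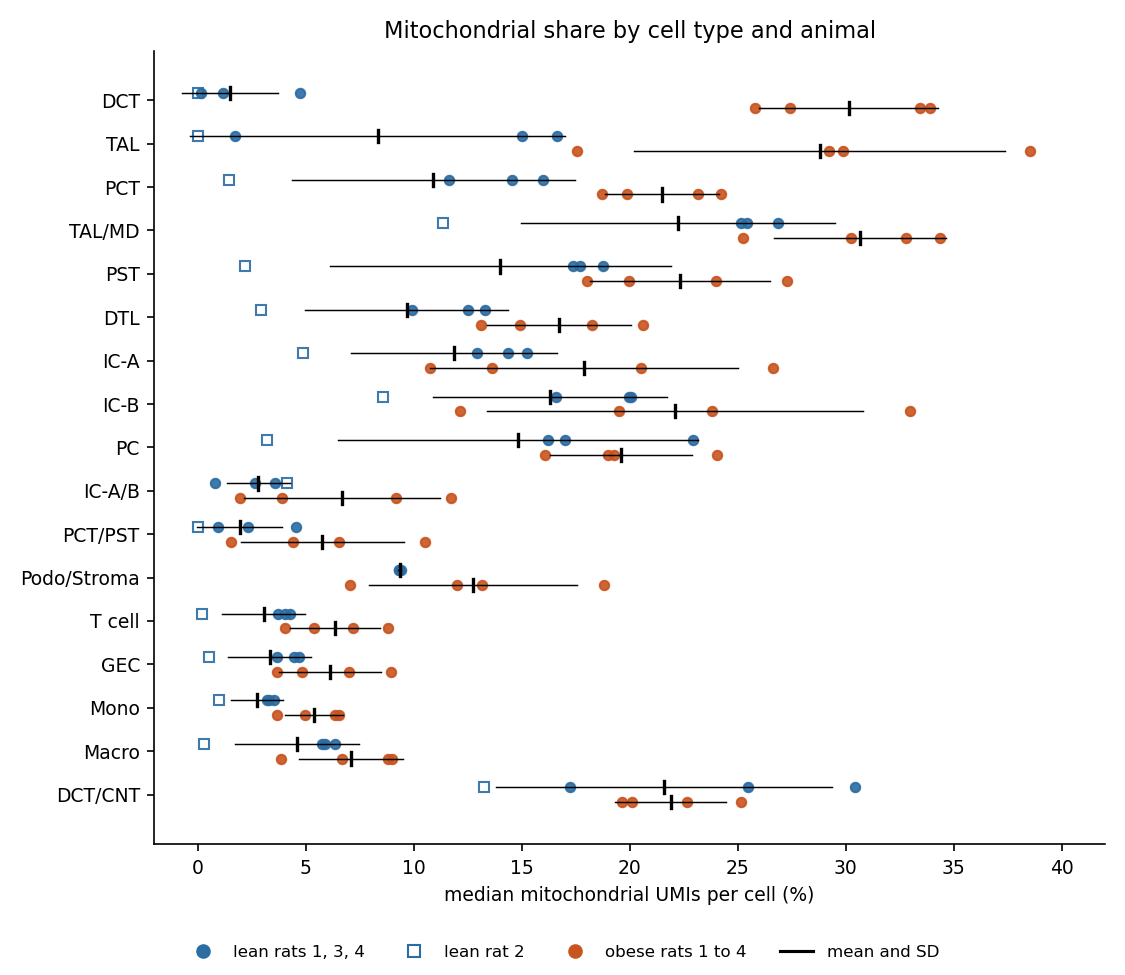
Each point is the median percent of mitochondrial UMIs over the cells of 1 type in 1 rat, for the 17 types with enough cells, ordered by the obese minus lean difference. DCT, at the top, has lean rats at 0% to 4.75% and obese rats at 25.8% to 33.9%, while DCT/CNT, at the bottom, has overlapping groups.

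The gap in DCT was not a shift of a few percent in every cell. In lean rats 47.1%, 92.8%, 31.2% and 68.6% of the DCT cells had under 1% mitochondrial UMIs, against 4.41%, 4.27%, 15.4% and 7.53% in obese rats. Cells with at least 20% made up 12.8%, 0.402%, 24.5% and 2.68% of lean and 77.2%, 62.4%, 58.5% and 69.9% of obese DCT cells. No lean animal reached any obese animal in either measure. In lean rat 2, where a DCT cell had a median of 302 UMIs, 88.4% of the DCT cells had 0 mitochondrial UMIs. In lean rats 1, 3 and 4, with 1093, 1438 and 1555 UMIs per DCT cell, 26.6%, 8.55% and 37.5% had 0. Within a fixed window of 1000 to 2000 UMIs the lean medians were 0.983%, 4.18% and 0.120% and the obese ones 34.0%, 27.7%, 26.9% and 40.9%, so the contrast was as wide at matched depth. Lean rat 2 had no DCT cell in the window. The part of RNA loss or cell damage in this difference was not tested.

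TAL cells showed the same layout with more spread. Their medians were 16.6%, 0%, 15.0% and 1.71% in lean and 29.2%, 38.5%, 29.9% and 17.6% in obese rats (20.5 ± 6.51 percentage points, adjusted p = 0.0741 in limma, n = 4 and 4). Lean rats 2 and 4, the lowest for TAL, were also the lowest for DCT. The TAL call was made when lean and obese animals were fitted alone (adjusted p = 0.0211 in limma). Over the alternatives tried, the adjusted p in limma ranged from 0.00123 to 0.450. The call was also made without obese rat 4 (24.2 ± 6.67) or treated rat 1 (20.5 ± 4.82), and on the log2 scale. Means in place of medians (15.6 ± 4.91) and the window of 500 to 1000 UMIs (19.1 ± 6.47) gave it too. PCT medians were 14.6%, 1.45%, 16.0% and 11.6% in lean and 23.2%, 24.2%, 18.7% and 19.9% in obese rats (10.6 ± 4.06, adjusted p = 0.133 in limma, n = 4 and 4), and were called only without treated rat 1 (10.6 ± 3.36), in the fit of lean and obese animals alone and in the window of 500 to 1000 UMIs. In PST, lean rat 2 at 2.21% stood apart from the other lean rats at 17.4% to 18.8%, and the obese rats lay at 18.0% to 27.3% (8.32 ± 5.01, adjusted p = 0.349 in limma, n = 4 and 4; 4.39 ± 4.63 without lean rat 2). In the window of 500 to 1000 UMIs PST was called (12.6 ± 4.56). The TAL and PCT differences without lean rat 2 were 17.7 ± 6.94 and 7.44 ± 3.76.

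Immune cells had low shares throughout. Monocytes were at 3.31%, 0.982%, 3.55% and 3.20% in lean and 6.55%, 6.34%, 3.66% and 4.97% in obese rats (2.62 ± 2.31, adjusted p = 0.414 in limma, n = 4 and 4). T cells were at 3.74%, 0.185%, 4.26% and 4.02% and at 7.20%, 8.81%, 4.03% and 5.40% (3.31 ± 2.44, adjusted p = 0.414 in limma, n = 4 and 4). The obese rats lay above or at the top of the lean range in both types, and neither difference was called. Relative to the mean over types of the same animal both turned lower in obese rats (-4.69 and -4.00), again without a call.

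Comparing neighbouring types within one animal cancels a shift that both types of that animal share in equal measure. Of 16 such pairs, 2 differed between obese and lean rats (12.5%), 1 higher and 1 lower (6.25% each), both containing DCT. DCT/CNT cells had a median 24.3, 13.3, 25.7 and 17.1 percentage points above that of DCT cells in lean rats, and -8.72, -7.30, -6.15 and -10.8 points relative to DCT in obese rats (difference -28.3 ± 3.02, adjusted p = 5.15e-05 in limma, n = 4 and 4). The order of these neighbours was thus opposite in all 8 animals according to group. DCT medians relative to TAL/MD were at -24.3, -11.4, -20.4 and -26.8 points in lean rats and at 3.64, -5.36, 0.552 and -0.895 points in obese rats (20.2 ± 3.24, adjusted p = 0.000835 in limma, n = 4 and 4). Both calls held without lean rat 2 (-30.6 ± 2.76 and 23.3 ± 2.40) and with every other animal left out. DCT and TAL cells did not part from each other beyond the spread (8.17 ± 5.54, adjusted p = 0.393 in limma, n = 4 and 4). TAL against DTL, at 4.09, -2.94, 1.70 and -8.21 points in lean and 10.99, 17.9, 16.7 and 2.65 in obese rats, was not called (13.4 ± 4.36, adjusted p = 0.0640 in limma, n = 4 and 4) but was without obese rat 4 (16.6 ± 4.07) or treated rat 1 (13.4 ± 3.74).

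The third question was how many different genes were seen per UMI, a measure of how evenly a cell's transcripts spread over genes, which falls as depth rises. The median per animal was lower on average in obese rats in all 17 types, and 3 of 17 (17.6%) passed limma's test, all lower: DCT, TAL and DTL. Without lean rat 2, PST (0.0363) and IC-B (0.0094) turned higher, neither of them called. Relative to the mean over types of the same animal, limma called 1 higher (PST) and 1 lower (DCT), and neither TAL (-0.0657) nor DTL (-0.0422). In 9 of 17 types (52.9%) every obese rat lay below every lean rat, and the exact permutation test called 0 of 16 complete types after adjustment (adjusted p = 0.0508) and 9 at an unadjusted p under 0.05. DCT cells had 0.612, 0.715, 0.566 and 0.553 genes per UMI in lean and 0.429, 0.487, 0.414 and 0.444 in obese rats (-0.168 ± 0.041, adjusted p = 0.0103 in limma, n = 4 and 4). TAL cells had 0.549, 0.734, 0.551 and 0.637 in lean and 0.428, 0.435, 0.466 and 0.534 in obese rats (-0.152 ± 0.048, adjusted p = 0.0274 in limma, n = 4 and 4). DTL cells had 0.520, 0.599, 0.471 and 0.505 in lean and 0.390, 0.416, 0.404 and 0.370 in obese rats (-0.129 ± 0.040, adjusted p = 0.0274 in limma, n = 4 and 4). None of these groups overlapped.

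Leaving out lean rat 2, the highest in each of the 3 types, gave smaller differences that were still called, at -0.133 for DCT, -0.114 for TAL and -0.103 for DTL. The DCT call was lost without obese rat 3 (-0.158 ± 0.046). The TAL call was lost without lean rat 4 (-0.146) or obese rat 1 (-0.140), 2 (-0.142) or 3 (-0.152), and the DTL call without lean rat 1 (-0.130) or 4 (-0.135) or any 1 obese rat (-0.120 to -0.136). Because mitochondrial UMIs come from few genes, all genes of a cell were also divided by its UMIs outside the mitochondrial share. Mitochondrial genes stayed in the gene count of this measure. There 0 of 17 types were called by limma, DCT turned to 0.0101 ± 0.0381, TAL shrank to -0.0258 and DTL kept most of its difference (-0.101). Among DCT cells under 5% mitochondrial UMIs, obese rat 3 was the only obese animal with enough cells (50). Its 0.428 genes per UMI lay below the lean values of 0.558 to 0.715. These cells were also deeper, with a median of 3842.5 UMIs against 301 to 1542 in lean rats, and the measure falls with depth. Within 1000 to 2000 UMIs DCT was still called (-0.125) and TAL was not (-0.0414).

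**Figure D4:**
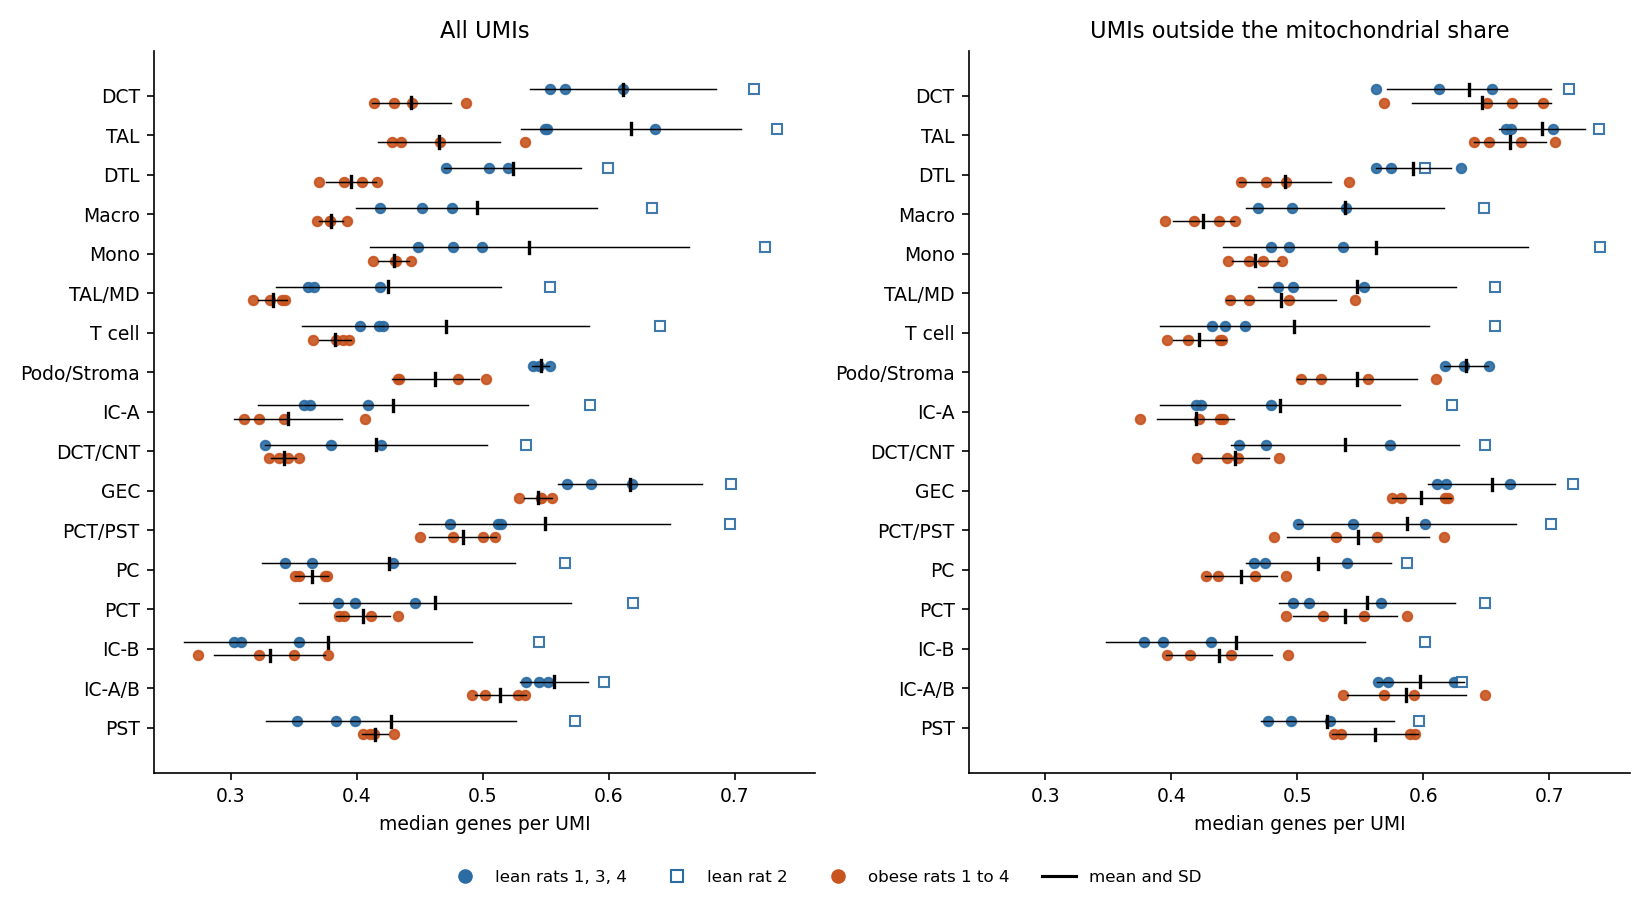
Points give the median genes per UMI of each cell type in each rat, over all UMIs on the left and over UMIs outside the mitochondrial share on the right. All genes, mitochondrial ones included, are counted on both sides. The DCT groups are apart on the left (lean 0.553 to 0.715, obese 0.414 to 0.487) and overlap on the right.

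PST had the smallest difference of the 17 types. Its lean values were 0.399, 0.573, 0.353 and 0.383 and its obese values 0.414, 0.430, 0.411 and 0.405 (-0.0124 ± 0.0470, adjusted p = 0.794 in limma, n = 4 and 4), so that, lean rat 2 aside, every obese rat lay above the lean rats. Relative to the mean over types of the same animal, PST was higher in obese rats by 0.0740 ± 0.0125, which limma called, and DCT (-0.0815 ± 0.0190) was the other type called on that scale. PCT, its upstream neighbour, had 0.386 to 0.619 in lean and 0.386 to 0.433 in obese rats (-0.0574 ± 0.0493, adjusted p = 0.293 in limma, n = 4 and 4). Monocytes had 0.449 to 0.724 in lean and 0.413 to 0.443 in obese rats (-0.108 ± 0.053, adjusted p = 0.138 in limma, n = 4 and 4). T cells had 0.403 to 0.641 in lean and 0.365 to 0.394 in obese rats (-0.0875 ± 0.0494, adjusted p = 0.166 in limma, n = 4 and 4). In both immune types the obese rats lay below every lean rat without passing the test. Without lean rat 2 these differences shrank to -0.00515 in PCT, -0.0453 in monocytes and -0.0308 in T cells.

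UMIs per cell, which stand behind these values, were higher on average in obese rats in all 17 types. This direction in every type rested on lean rat 2, and without it IC-B (-0.41 ± 0.38) and PST (-0.10 ± 0.38) were lower. limma called 0 of 17 after adjustment and 2 at an unadjusted p under 0.05, and the exact permutation test likewise called 0 and 2. The largest difference was in DTL, with medians of 1346.5, 374, 1602 and 1390.0 UMIs in lean and 3733.5, 2894, 4536 and 3153 in obese rats, without overlap (3.43-fold, log2 difference 1.78 ± 0.55, adjusted p = 0.0898 in limma, n = 4 and 4). It passed the threshold without lean rat 2 (1.29 ± 0.38), and relative to the other types of the same animal (0.85 ± 0.17). DCT/CNT (1.37 ± 0.67) and macrophages (1.32 ± 0.58) followed, each with an adjusted p of 0.288 in limma (n = 4 and 4). DCT (0.64 ± 0.56), PCT (0.64 ± 0.59), TAL (0.67 ± 0.52), PST (0.50 ± 0.57), T cells (0.96 ± 0.61) and monocytes (1.11 ± 0.64) were not called. Without lean rat 2 the log2 differences were 0.64 in DCT/CNT, 0.76 in macrophages, 0.10 in DCT, 0.06 in PCT, 0.22 in TAL, 0.30 in T cells and 0.40 in monocytes.

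The last question concerned the S and G2M scores, which weigh genes of DNA replication and of mitosis in each cell and have no unit. For the S score limma called 0 of 17 types after adjustment and 6 (35.3%) at an unadjusted p under 0.05, and the exact permutation test called 0 and 3. The groups did not overlap in 3 types (17.6%). TAL/MD cells were at -0.00113, -0.00624, -0.00282 and -0.00577 in lean and at 0.000728, 0.00228, 0.000486 and 0.00451 in obese rats (0.00599 ± 0.00196, adjusted p = 0.0739 in limma, n = 4 and 4). DCT/CNT cells went the other way, at -0.00521, -0.00384, -0.00694 and 0.000285 in lean and -0.00961, -0.00813, -0.0106 and -0.0115 in obese rats (-0.00603 ± 0.00204, adjusted p = 0.0739 in limma, n = 4 and 4). DTL cells had the widest gap (0.00947 ± 0.00329, adjusted p = 0.0739 in limma, n = 4 and 4) and were called without lean rat 2 (0.0123 ± 0.0030). Macrophages followed, at -0.00335 to 0.00803 in lean and 0.00569 to 0.0106 in obese rats (0.00682 ± 0.00274, adjusted p = 0.0871 in limma, n = 4 and 4). Differences of 0.00500 in PST, 0.00270 in PCT, 0.00538 in monocytes, 0.000334 in TAL, -0.00234 in T cells and -0.00572 in DCT were not called. In the window of 500 to 1000 UMIs limma called DCT (-0.0118) and TAL (-0.00875) lower and PST (0.00667) higher. In PCT/PST the obese rats, at 0.00306 to 0.00495, also lay above every lean rat, at -0.00273 to 0.00170.

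For the G2M score limma called 0 of 17 types after adjustment and 4 (23.5%) at an unadjusted p under 0.05, and the exact permutation test called 0 and 2. The groups did not overlap in DCT and monocytes (11.8%). DCT cells were at -0.0265, -0.0165, -0.0261 and -0.0285 in lean and at -0.0148, -0.0154, -0.00688 and -0.0132 in obese rats (0.0118 ± 0.0038, adjusted p = 0.0654 in limma, n = 4 and 4). Macrophages (0.0106 ± 0.0042), TAL (0.00938 ± 0.00387) and monocytes (0.00844 ± 0.00388) came next, with adjusted p values of 0.113, 0.113 and 0.150 in limma (n = 4 and 4). Without lean rat 2, whose scores were among the highest of the lean rats in most tubule types, 8 types were called higher in obese rats. Among them were DCT (0.0144 ± 0.0025), TAL (0.0122 ± 0.0026), macrophages (0.0127 ± 0.0044), PST (0.00767 ± 0.00225) and PCT (0.00617 ± 0.00203). T cell scores were not called in this fit (-0.000682) or in the one with all animals (-0.00219 ± 0.00417, adjusted p = 0.731 in limma, n = 4 and 4).

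The phase that the authors called from these scores gave 12.4% to 17.1% of DCT cells as G2M in lean and 19.7% to 28.0% in obese rats. TAL ranged from 15.0% to 21.6% in lean and 20% to 31.0% in obese rats, and monocytes from 23.9% to 41.2% and 41.9% to 50.3%. These 3 types passed limma's test on the percent of cells (9.31 ± 2.46, 7.74 ± 2.65 and 9.84 ± 2.98 percentage points). The calls cannot be read as dividing cells. In T cells 41.4% to 62.9% of cells per animal were called G2M, in both groups, and the part of depth and free RNA in these calls was not tested, as no gene values were at hand.

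**Figure D5:**
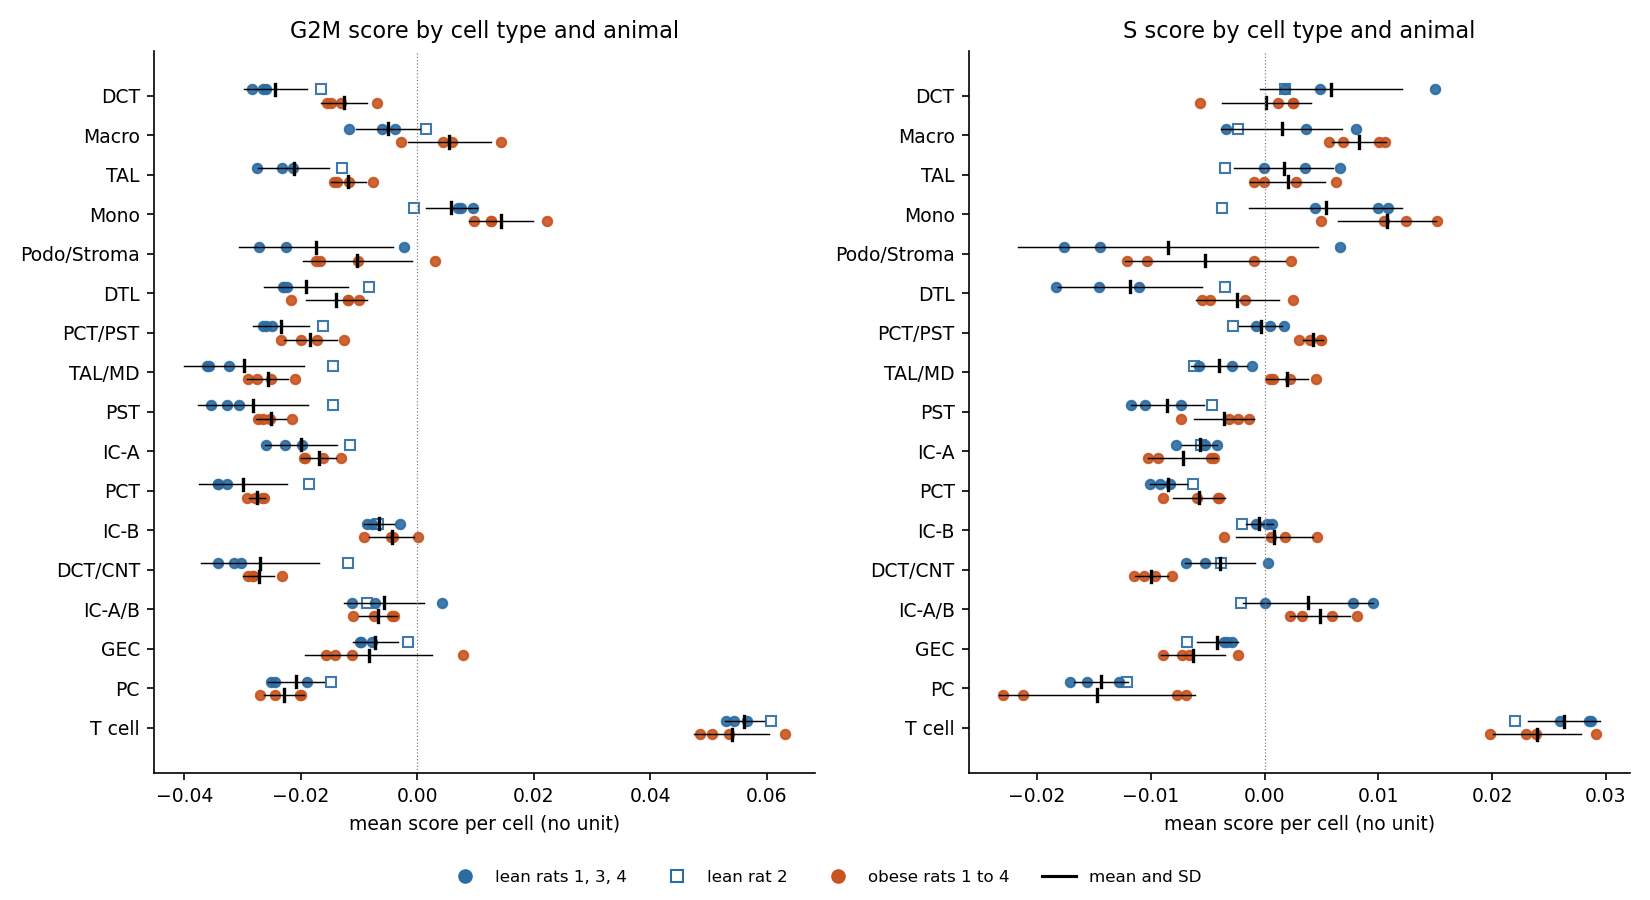
Points give the mean G2M score (left) and S score (right) of each cell type in each rat, ordered by the obese minus lean difference in the G2M score. In DCT and monocytes every obese rat has a G2M score above every lean rat, and the open square, lean rat 2, lies to the right of the other lean rats in most tubule types.

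Over all cells of a kidney, 0 of 8 values passed the exact two-sided permutation test after adjustment, and 4 of 8 reached its smallest possible p of 0.0286 (adjusted p = 0.0571, n = 4 and 4). The median mitochondrial share was 7.48% ± 3.52 in lean and 12.9% ± 2.77 in obese rats (SD, n = 4 each). The percent of cells called G2M was 21.2% ± 2.27 and 30.4% ± 2.43 (SD, n = 4 each). The mean S score was -0.00163 ± 0.00144 and 0.00372 ± 0.00163, and the mean G2M score -0.0161 ± 0.0052 and -0.00321 ± 0.00433 (SD, n = 4 each). No obese rat overlapped a lean rat in these 4. For the mitochondrial share the groups nearly met, with lean rats 1 and 3 at 10.28% and 10.22% and obese rats 3 and 4 at 10.45% and 10.62%. Lean rat 2 was the lowest, at 2.90%. When the 16 types measured in all 8 rats were given equal weight, the gaps in the mean S and G2M scores shrank to 0.00154 and 0.00366 and the groups overlapped, while the mitochondrial share and the percent called G2M still did not overlap. T cells and monocytes had the highest mean G2M scores of the 17 types in both groups.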

How the data were processed

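Per the submitters' processing notes, Cell Ranger 7.0.1 and Seurat 4.3.0 were used, with build rn6. Not given in the sources used here are the steps for filtering, clustering, naming and scoring cells, and for doublets and free RNA. All values come from 1 table that lists the cells and holds no gene values. UMIs and genes per cell are raw counts deposited by the authors, per the file headers and whole-number values. The mitochondrial share is a percent deposited by the authors, with a highest value of 49.99, and the richest cell had 2971 genes. Each cell also has an S and a G2M score and a phase, as the authors deposited them.

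The sample code of each cell gave its animal through the labels, with 0 cells unmatched and 0 in conflict with the labelled group. For each animal the log2 ratio of cells of 22 pairs of types was taken with 0.5 added to each count. Medians of genes per UMI, log2 UMIs and mitochondrial percent, and mean scores, were taken per type from at least 20 cells, in types with at least 3 animals per group, which left 17 types. Podo/Stroma had a value in 3 lean rats. Each family was fitted with limma 3.58.1 over all 11 animals in 3 groups, with Benjamini-Hochberg adjustment at 0.05. The 8 whole-kidney values were each given an exact permutation test, two-sided, with adjustment over the 8. edgeR 4.0.16, with the pair total as offset, served as an alternative for the pairs. Scripts ran in R 4.3.3 and in Python 3.11.15 with pandas 2.3.3, numpy 2.4.6, matplotlib 3.10.9 and scipy 1.17.1. Of the tests, limma on pair ratios was tried on simulated ratios with independent noise per pair, unlike the real pairs, which share types. The exact test and the adjustment were compared with scipy on random numbers. The other families and edgeR were not simulated.

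Without gene values cells could not be thinned to equal depth, so windows of 500 to 1000 and 1000 to 2000 UMIs were used. Named by rule are all pairs, each type past the threshold, the 3 largest differences of each family, and DCT, TAL, PCT, PST, T, B and monocyte types. Chosen after their values were seen are TAL/MD and PCT/PST scores, whose groups did not overlap, TAL minus DTL mitochondrial values, and IC-B and DCT/CNT values that changed sign without lean rat 2. The types, pairs and lists were chosen with earlier results of these data known, and 5 alternatives on mitochondrial UMIs were added after the data were seen. Each rat is 1 library, and p-values measure the spread between animals taken as independent. Whether rats that share a code stem resemble each other was not tested.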

Additional observations from a re-analysis of the deposited data

Results flagged for a closer look

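Of 142 groups of 4 animals checked for a single rat far from the other 3, 12 had one, where chance gives about 1 in 20. In 8 of the 12 it was lean rat 2. It had a log2 ratio of TAL/MD to DTL of 4.13, against 2.05 to 2.28 in the other lean rats, and 374 UMIs per DTL cell, against 1346.5 to 1602. Its T cells had 0.641 genes per UMI, against 0.403 to 0.421. Its median mitochondrial shares were 0.982% in monocytes (others 3.20% to 3.55%), 2.21% in PST (17.4% to 18.8%) and 0.185% in T cells (3.74% to 4.26%). Its PCT cells had a G2M score of -0.0186, against -0.0343 to -0.0327, and 10.9% of all its cells were called S, against 30.1% to 31.5%.

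The other 4 were spread over different rats. Obese rat 4 had a log2 ratio of DCT to TAL of -1.47, against -0.26 to -0.03 in the other obese rats. Lean rat 4 had a log2 ratio of macrophages to monocytes of 0.21, against -0.79 to -0.64. Lean rat 1 had a log2 ratio of lymphoid to myeloid cells of 0.37, against 0.00 to 0.04. Obese rat 1 had an S score of -0.00567 in DCT, against 0.00123 to 0.00250.

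Neighbouring types also differed in how far their mitochondrial share separated obese from lean rats, in limma's test of the difference within each animal. The obese minus lean gap was 20.2 percentage points wider in DCT than in TAL/MD, and DCT/CNT minus DCT moved by -28.3 points, in 4 of 4 animals of each group on opposite sides of the other group's range.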

How the results depend on the processing

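Counts of calls moved as follows. For pair ratios, 11 in all, there were 6 calls among cells with at least 500 UMIs and 5 among cells with at least 5% mitochondrial UMIs. There was 1 among cells with at least 20%, 0 in the exact permutation test, and 6 to 11 with 1 animal left out. Among cells with at least 1000 UMIs, where lean rat 2 had no value, the same 11 pairs were called except all IC to PC (-0.90). edgeR on the first type's share of the pair total called 8, without DCT/CNT to DCT, all IC to PC and GEC to Podo/Stroma. For genes per UMI, 3 in all, there was 1 in 1000 to 2000 UMIs, 0 outside the mitochondrial share, 0 among cells under 5%, 0 among cells with at least 20%, 0 in the exact test, and 0 to 4 with 1 animal left out. UMIs went from 0 to 1 when centred on the animal and to 0 to 1 with 1 animal left out. For the mitochondrial percent, 1 in all, there were 3 calls with lean and obese animals alone, 2 on the log2 scale, 2 with means, 4 in 500 to 1000 UMIs, 0 in the exact test, and 1 to 3 with 1 animal left out. For mitochondrial differences within pairs, 2 in all, there were 1 in 1000 to 2000 UMIs, 0 in 500 to 1000 UMIs, 0 in the exact test and 2 to 4 with 1 animal left out. The S score went from 0 to 4 calls in 500 to 1000 UMIs (1 higher, 3 lower) and to 0 to 1 with 1 animal left out. The G2M score went from 0 to 1 with at least 50 cells, 1 when centred, 3 as percent called, 3 in 500 to 1000 UMIs, and 0 to 8 with 1 animal left out. The depth windows test fewer types and cells, and otherwise the cause was not tested. Whole-kidney values had 0 calls throughout. With 1 animal left out, and in 1000 to 2000 UMIs without lean rat 2, 3 animals stood against 4. The exact permutation test cannot reach a p under 0.05 there, so those settings could make no call.

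The replicate numbers were not treated as pairing the animals. Deviations of same-numbered rats correlated at 0.0607, -0.131, 0.199 and -0.105 for pair ratios and at -0.707 to 0.190 for the mitochondrial percent. These values show no steady pairing, but so few correlations cannot exclude one. With the replicate block the counts stayed at 11, 3, 0, 1, 0 and 0, and mitochondrial differences within pairs went from 2 to 4, adding TAL minus DTL (13.4) and TAL/MD minus TAL (-12.0).

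The values that changed sign were these, none of them called except where said. For pair ratios, DTL to PST ran from -0.30 to 0.70 with 1 animal left out. With at least 5% mitochondrial UMIs DCT to TAL/MD was 0.80, DCT/CNT to DCT -1.12 and lymphoid to myeloid 0.29, and TAL/MD to TAL was 0.13 under 20%. With at least 20%, PCT/PST to PCT was -0.22, DCT to TAL/MD 1.69, DCT/CNT to DCT -2.56, IC-A/B to single types -0.11, Mono/Macro to monocytes -0.51 and lymphoid to myeloid 0.41. For genes per UMI, PST ran from -0.0372 to 0.0363 with 1 animal left out, was 0.0740 centred (called), 0.0324 in 1000 to 2000 UMIs, 0.0379 outside the mitochondrial share and 0.0490 with at least 20%. PCT was 0.0291 centred, 0.000439 in 1000 to 2000 UMIs and 0.00612 with at least 20%, T cells 0.00803 in that window and DCT 0.0101 outside the mitochondrial share. For log2 UMIs, PST ran from -0.10 to 0.80 with 1 animal left out, and centring gave DCT -0.29, PCT -0.29, PST -0.43 and TAL -0.26. Centred mitochondrial differences were -4.69 in monocytes and -4.00 in T cells. The S score of TAL ran from -0.00137 to 0.00198 with 1 animal left out, and was -0.00122 centred and -0.00875 in 500 to 1000 UMIs (called). That of T cells was 0.00337 by medians, with 1.51 points more cells called S. Centred G2M differences were -0.00130 in PCT and -0.000629 in PST. T cell G2M differences were 0.00663 by medians, 6.73 points as percent called, and 0.00294 and 0.0107 in 1000 to 2000 and 500 to 1000 UMIs. Whole-kidney median genes differed by -15.0 and -5.0 in these windows, and the percent called S by -1.04 in the lower one.

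Lean B cells numbered 7 to 17 per rat, and lean rat 2 had no type with enough cells in the window of 1000 to 2000 UMIs.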

Other observations

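Urothelial cells, which line the renal pelvis, and endothelial cells outside the glomerulus (Endo) entered no pair. The urothelial cells numbered 46, 56, 6 and 6 in lean rats 1 to 4 and 13, 10, 10 and 9 in obese rats 1 to 4, so lean rats 1 and 2 held most of them. The Endo type had 0 to 2 cells in lean and 2 to 7 in obese rats, too few for any value per animal.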
